A study of Mus musculus with 7 samples.

Results

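The genes described here are 32 genes of glucose uptake, glycolysis, lactate and pyruvate handling and the response to low oxygen, taken by their symbols from a table of 46671 genes. All 32 were found, and each stood on a single row. They were followed in 7 RNA-seq libraries of mouse intestinal epithelium. Wild-type littermates gave 3 libraries (Ctrl), and 4 came from mice lacking Stk24, the gene of the kinase MST3, in intestinal epithelial cells (cKO).

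Glycolysis splits glucose into pyruvate in the cytosol. Glucose enters through carriers of the GLUT family and is trapped by hexokinases, and phosphofructokinase and pyruvate kinase are the main points of control. Pyruvate is then reduced to lactate by lactate dehydrogenase and leaves through monocarboxylate carriers, or it enters mitochondria through a carrier and is oxidised by the pyruvate dehydrogenase complex. HIF1 is a transcription factor whose alpha subunit is marked for breakdown by prolyl hydroxylases of the EGLN family when oxygen is present. Many genes of glycolysis are HIF1 targets. In the intestine, oxygen falls from the crypt base towards the lumen, and absorptive cells also handle large amounts of dietary sugar.

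All mice were of the BALB/C strain, 8 weeks old and kept under specific-pathogen-free conditions, and the text on treatment states that they received no drug, whereas the design text speaks of azoxymethane and dextran sulfate treatment. The sources used here do not name the driver of the deletion and do not say whether libraries come from separate animals. The p-values therefore speak only of spread among the libraries at hand, which may be technical. The libraries held 14659708 to 19659622 reads assigned to genes. Stk24 stood at 19.4, 19.4 and 21.0 fragments per kilobase of gene scaled to library size (FPKM) in Ctrl and at 2.92, 3.04, 3.85 and 3.53 FPKM in cKO (limma log2 difference -2.42, SE 0.12, adjusted p = 0.000427), so every cKO library was below every Ctrl library for the targeted gene.

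Every library carried an epithelial profile, with 10 of 10 epithelial markers above 0.5 FPKM on average. The tissue label names the colorectum, but markers of small intestinal enterocytes (10 of 10 above 0.5 FPKM) summed to between 21713 and 39046 FPKM per library. Of 9 matched colon markers, 3 reached that level, their list summed to at most 144 FPKM, and Hoxd10 and Hoxd13 were at 0 throughout. Markers of muscle and endothelium summed to at most 0.771 FPKM in any library, and those of fibroblasts to at most 7.91 FPKM. Transcripts of 4 Y-linked genes were at 0 in all 7 libraries. In such bulk samples, fewer cells of a type and less RNA per cell cannot be told apart.

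Promoter sequences show what a subset of these genes shares at the DNA level. All 32 genes matched RefSeq entries, with 48 windows in total, each of 300 bases from 250 bases before to 50 bases after an annotated start (build GRCm38.p6). The core of the element that HIF1 recognises, ACGTG read on either strand, was present in 22 of 48 windows (45.8%) and in at least 1 window of 19 genes. Over all 32851 windows of the same length the share was 19.6%. Windows of the same gene can overlap, as for Aldoa, so a site can be counted more than once. No share per gene was taken over all genes. Known HIF1 targets were among the genes chosen, so a higher share is partly set by that choice and is no test. The other form of the core, GCGTG, was found in 56.3% of the windows of these genes and in 32.4% of all windows. The 48 windows were also richer in G and C, with a median of 61.7% against 52.7% over all windows, and both motifs hold CG. The letters CACGTG, in which ACGTG lies on both strands, were found in 10.4% of these windows and 7.15% of all. A match is a description of letters, and binding was not measured. Vegfa is itself a HIF1 target, and its values and those of Hkdc1 are treated further on. The windows below are examples from both genes and from 3 other well-known HIF1 targets. They are printed 5′ to 3′ in the direction of transcription, with ACGTG or its reverse complement in capitals.
Ldha, chr7:46845554-46845853, plus strand: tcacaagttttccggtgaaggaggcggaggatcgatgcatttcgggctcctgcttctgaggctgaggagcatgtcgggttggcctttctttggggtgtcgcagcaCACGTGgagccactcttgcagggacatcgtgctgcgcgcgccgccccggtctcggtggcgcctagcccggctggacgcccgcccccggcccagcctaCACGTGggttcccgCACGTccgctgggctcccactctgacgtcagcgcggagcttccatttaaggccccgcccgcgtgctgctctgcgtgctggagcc
Pgk1, chrX:106186850-106187149, plus strand: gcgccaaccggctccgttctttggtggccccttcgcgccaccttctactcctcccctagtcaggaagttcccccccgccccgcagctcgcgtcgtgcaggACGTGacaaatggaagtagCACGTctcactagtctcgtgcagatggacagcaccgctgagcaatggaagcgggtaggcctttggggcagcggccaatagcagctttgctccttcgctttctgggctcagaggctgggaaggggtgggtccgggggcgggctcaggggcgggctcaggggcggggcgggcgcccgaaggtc
Slc16a3, chr11:120948817-120949116, plus strand: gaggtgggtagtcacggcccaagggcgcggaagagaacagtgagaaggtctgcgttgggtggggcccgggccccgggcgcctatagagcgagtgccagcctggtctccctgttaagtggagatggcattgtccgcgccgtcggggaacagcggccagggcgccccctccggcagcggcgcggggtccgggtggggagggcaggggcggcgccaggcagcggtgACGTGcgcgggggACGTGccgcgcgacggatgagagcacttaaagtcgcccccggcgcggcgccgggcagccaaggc
Hkdc1, chr10:62422408-62422707, minus strand: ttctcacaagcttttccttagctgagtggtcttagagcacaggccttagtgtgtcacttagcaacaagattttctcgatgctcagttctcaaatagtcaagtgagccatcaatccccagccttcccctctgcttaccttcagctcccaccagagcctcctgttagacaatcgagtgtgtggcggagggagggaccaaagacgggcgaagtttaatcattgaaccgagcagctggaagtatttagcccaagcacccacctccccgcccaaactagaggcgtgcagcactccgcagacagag
Vegfa, chr17:46032328-46032627, minus strand: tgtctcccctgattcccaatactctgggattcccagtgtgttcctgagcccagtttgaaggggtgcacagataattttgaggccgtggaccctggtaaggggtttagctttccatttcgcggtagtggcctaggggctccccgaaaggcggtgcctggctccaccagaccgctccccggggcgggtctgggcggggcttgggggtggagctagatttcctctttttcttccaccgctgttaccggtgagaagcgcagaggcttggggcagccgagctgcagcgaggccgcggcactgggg

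In the Ldha window, which is 1 of 2 for that gene, the motif was counted 5 times, 4 of them as pairs on opposite strands of CACGTG. The other Ldha window, not shown, held it 0 times. The Pgk1 and Slc16a3 windows each held it 2 times. No capitals appear in the Hkdc1 window or in the upstream one of the 2 Vegfa windows, which says only that these letters were not found there. The downstream Vegfa window, not shown, held the motif 1 time. GCGTG, which is not capitalised, was counted 2 times in the Ldha window and 1 time in the Hkdc1 window, and 0 times in those of Pgk1, Slc16a3 and upstream Vegfa. Hk1 and Hkdc1, which encode hexokinases, lie side by side on the minus strand of chromosome 10, with 3216 bases between the ends of their annotated spans in GRCm39, the build whose chromosome sequences the expression table names.

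Levels of the 32 genes spanned more than 3 orders of magnitude on the FPKM scale. This scale divides reads by the annotated gene length, from 806 bases for Mpc2 to 11760 for Pfkp. The order of the genes therefore depends on these lengths. A mean of at least 100 FPKM was reached by 9 genes, 13 lay between 10 and 100 FPKM, 9 between 1 and 10 FPKM, and 1 lay lower. Together they made up between 0.499% and 0.626% of a library's FPKM sum. Tpi1, which encodes triose phosphate isomerase, was the highest in FPKM, with a mean of 482 FPKM and rank 142 among all genes. Enolase (Eno1, 472 FPKM), lactate dehydrogenase A (Ldha, 284 FPKM) and phosphoglycerate kinase (Pgk1, 216 FPKM) came next. In reads, Ldha (length 5342 bases) had 20033 to 34627 per library, against 8742 to 16329 for Tpi1 (1469 bases). The lowest was Ldhb, the heart-type lactate dehydrogenase subunit, at 0.159 FPKM.

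**Figure D1:**
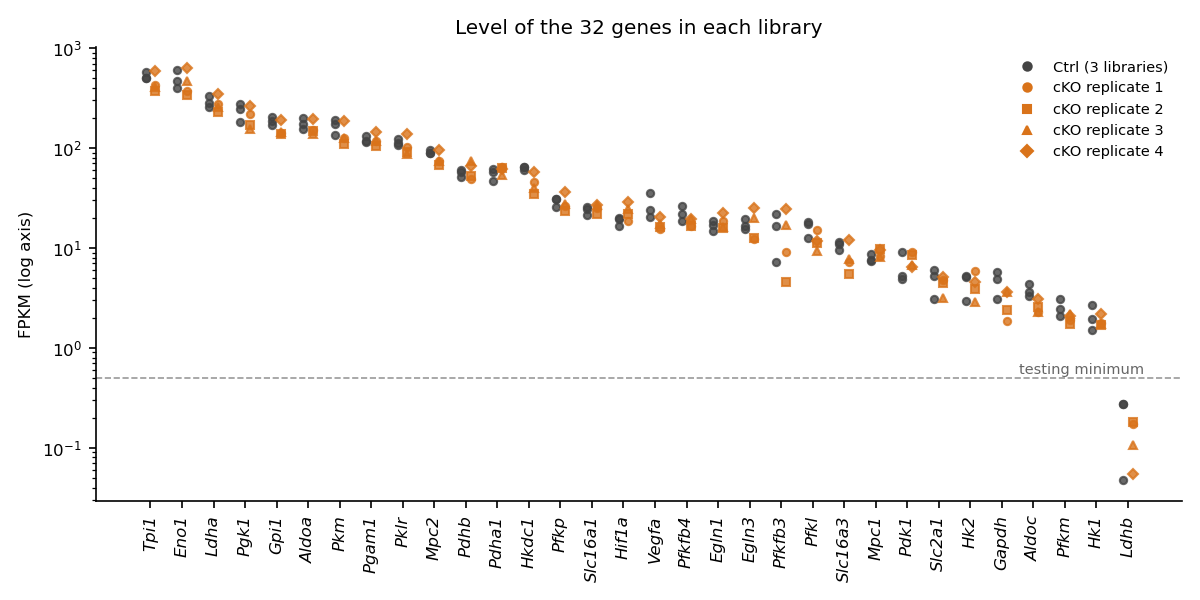
FPKM (log axis) of the 32 genes in each library, ordered by mean. Grey points are the 3 Ctrl libraries and orange symbols the 4 cKO libraries. The dashed line marks the mean of 0.5 FPKM required for testing, which Ldhb alone did not reach.

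Isoenzymes of the same step differed in FPKM, with the same dependence on annotated length. Among hexokinases, Hkdc1 had a mean of 52.5 FPKM against 4.35 FPKM for Hk2 and 1.92 FPKM for Hk1. The platelet-type phosphofructokinase Pfkp had a mean of 28.6 FPKM, the liver type Pfkl 13.6 FPKM and the muscle type Pfkm 2.22 FPKM. Both pyruvate kinase genes were abundant, Pkm at 149 FPKM and Pklr, the liver and red cell form, at 109 FPKM. Within every library Ldha was at least 947 times as high as Ldhb on the FPKM scale. Gapdh, an enzyme gene that is usually among the most abundant of the pathway, was listed at a mean of only 3.60 FPKM, from 57 to 163 reads per library. The table also lists 135 pseudogenes named for the Gapdh protein, and these took 2601 reads over the 7 libraries against 714 for Gapdh itself. The sources used here do not say how reads that fit several copies were counted, so the level of Gapdh is uncertain. For 6 other enzyme genes with such copies (Ldha, Pgk1, Tpi1, Pgam1, Gpi1 and Eno1), the pseudogenes held at most 2.77% of the reads of gene and copies together.

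The comparison of cKO with Ctrl asked whether loss of MST3 went along with a different level of these genes. Of the 32 genes, 31 reached a mean of 0.5 FPKM and were tested, and 0 of them passed an adjusted p of 0.05 in limma, where 0.0306% of all 13057 tested genes passed. Their adjusted p lay between 0.511 and 0.984. At an unadjusted p under 0.05 there were 3 members, Hkdc1, Aldoc and Vegfa, all lower in cKO, or 3 of 31 where 4.73% of all tested genes were lower at that level and 4.24% higher. Groups did not overlap for 2 of them, Hkdc1 and Aldoc, both lower, where 4.51% of all tested genes were lower without overlap, and for 0 of them higher, where 5.62% of all were. With 31 genes these counts rest on few genes and are no result about the set.

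The direction of the fitted differences was uneven over the roles. A log2 difference below 0 was fitted for 24 of 31 genes, with a median of -0.15, whereas 51.3% of all tested genes lay below 0, with a median of -0.0077. All 19 genes of glucose uptake and glycolysis lay below 0 (median -0.25), although Hk2, Pfkp and Pgam1 lay above 0 after rescaling to a common sum (TPM), Pfkp and Pgam1 after quantile normalization, and Pgam1 after removal of the trend with gene length and in voom on recovered reads. Slc2a1 and Hk2 also lay above 0 with array weights. Among the other 12 tested genes, those of lactate, pyruvate and oxygen sensing, 5 lay below 0 (median 0.084). After rescaling to a common sum, 19 of the 31 lay below 0, beside 38.7% of all tested genes. Without Ctrl replicate 1, 18 of the 31 lay below 0, beside 49.5% of all tested genes. Of the uptake and glycolysis genes, Slc2a1, Hk1, Hk2, Pgam1 and Eno1 then lay above 0. Without cKO replicate 2, 19 of the 31 lay below 0, beside 51.2%. The 19 genes pool the uptake, upper and lower glycolysis lists, in each of which every gene lay below 0. The members were chosen with earlier results known, so these counts are no result about the set.

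The size of the differences also varied with the cKO library looked at. Relative to the Ctrl mean, the median of the 31 genes on the log2 scale was -0.19, -0.40 and -0.17 in cKO replicates 1, 2 and 3, but 0.18 in cKO replicate 4. The Ctrl libraries lay at 0.11, -0.043 and -0.022, and the median over all tested genes stayed between -0.012 and 0.015 in each library. So 3 cKO libraries lay below the Ctrl libraries and the fourth lay above them. Without cKO replicate 4, groups did not overlap for 10 genes, all lower in cKO, where 8.11% of all tested genes were lower without overlap and 8.36% higher. These 10 were Hkdc1, Gpi1, Aldoa, Aldoc, Tpi1, Pkm, Pklr, Slc16a3, Mpc2 and Vegfa, and again 0 members passed the adjusted p. The median difference was then -0.28, while the number of members below 0 stayed at 24. Here cKO replicate 4 was singled out after its median was seen to stand apart, so these counts are no result about the set. Leaving out Ctrl replicate 1 instead gave 6 lower and 2 higher without overlap, beside 7.85% and 8.46% of all tested genes. Leaving out cKO replicate 2 gave 2 lower and 0 higher, beside 5.29% and 6.99%.

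Marker sums of absorptive cells also differed among the cKO libraries. The 10 enterocyte markers summed to 39046 FPKM in cKO replicate 4 and to between 21713 and 27410 FPKM in the other cKO libraries, with 31596 to 37874 FPKM in Ctrl. The sum was carried by a few abundant genes, and single markers varied. Fabp2 and Apoa1 were below all Ctrl libraries in cKO replicates 1 to 3 and above them in cKO replicate 4, Fabp1 and Apoa4 were below all Ctrl libraries in every cKO library, and Sis was highest in cKO replicates 3 and 4. The 10 general epithelial markers summed to 9294 FPKM in cKO replicate 4, to between 6566 and 7384 FPKM in the other cKO libraries and to between 7694 and 8109 FPKM in Ctrl. Of the T cell and innate lymphoid markers, 9 of 10 were above 0.5 FPKM on average, and their sum was 447 to 1105 FPKM in Ctrl and 287 to 694 FPKM in cKO. Paneth cell markers (5 of 5 above 0.5 FPKM) summed to 16470, 16318, 4122 and 3795 FPKM in cKO replicates 1 to 4 and to 8004 to 21888 FPKM in Ctrl. The part of these cells in the levels of the glycolytic genes was not tested.

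**Figure D2:**
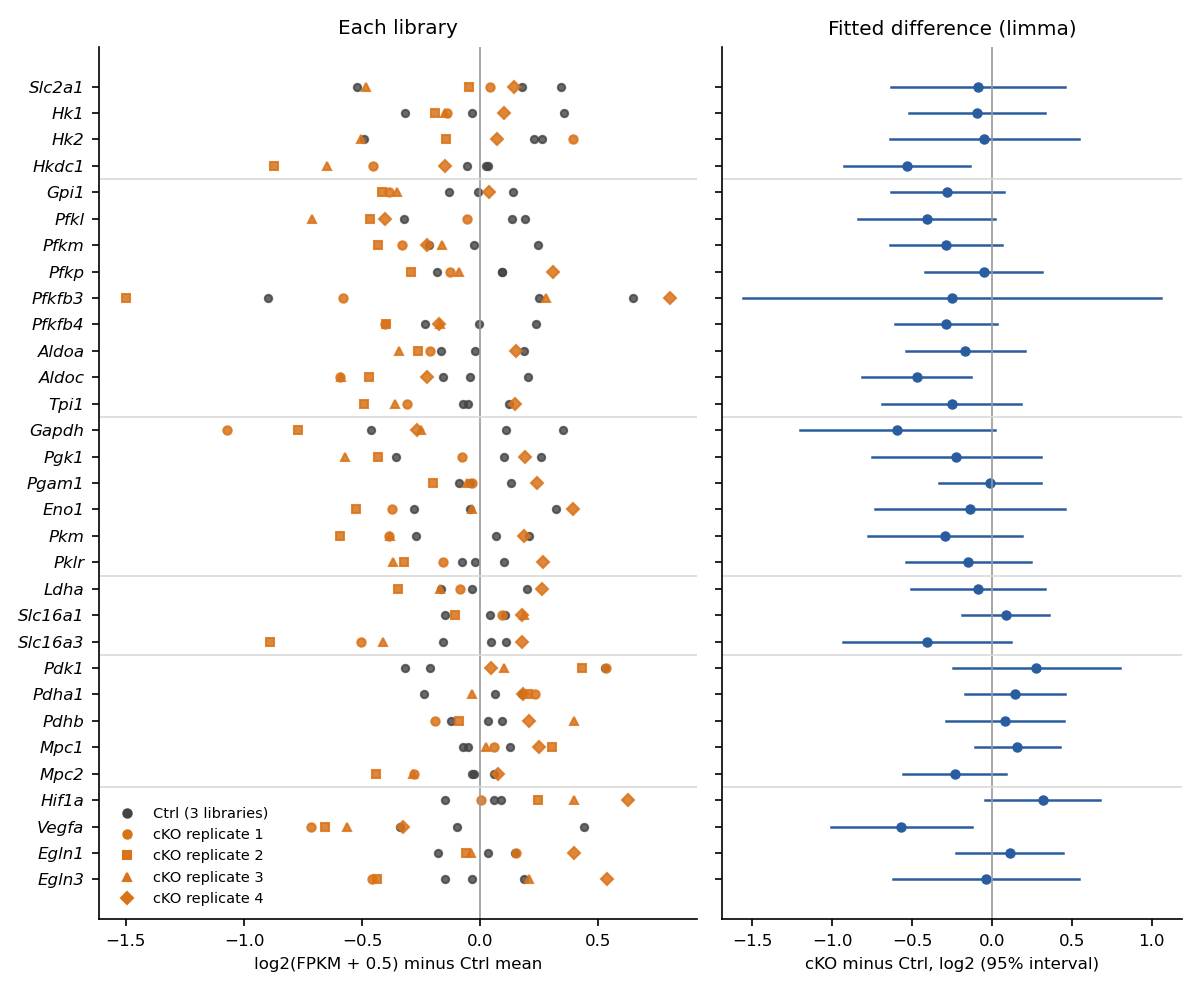
Left, log2(FPKM + 0.5) of the 31 tested genes in each library minus the Ctrl mean, with Ctrl in grey and cKO in orange, in the order uptake, upper glycolysis, lower glycolysis, lactate, pyruvate and oxygen sensing. Right, the cKO minus Ctrl difference with its 95% interval from limma. Diamonds (cKO replicate 4) mostly lie to the right of the other cKO symbols, and only the intervals of Hkdc1, Aldoc and Vegfa leave out 0.

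Glucose uptake and trapping were represented by the basolateral-type glucose carrier GLUT1 (Slc2a1) and 3 hexokinases. Hkdc1, a hexokinase family member on chromosome 10 from 62218916 to 62259490, stood at 64.7, 64.2 and 60.8 FPKM in Ctrl replicates 1 to 3 and at 46.0, 34.3, 40.2 and 57.0 FPKM in cKO replicates 1 to 4. Every Ctrl library was above every cKO library, with cKO replicate 4 closest to Ctrl. The difference was -0.53 (SE 0.17, 95% interval -0.92 to -0.14) with an unadjusted p of 0.0143 and an adjusted p of 0.511 in limma, so it did not pass. It stayed between -0.66 and -0.42 over the 18 alternatives.

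Hk2, the insulin- and HIF-responsive hexokinase, stood at 5.27, 2.93 and 5.14 FPKM in Ctrl and at 5.82, 3.85, 2.89 and 4.55 FPKM in cKO. Hk1, the housekeeping form, stood at 2.68, 1.93 and 1.499 FPKM in Ctrl and at 1.76, 1.68, 1.75 and 2.17 FPKM in cKO. For both the groups overlapped, and the intervals of the difference reached from -0.64 to 0.55 for Hk2 and from -0.52 to 0.33 for Hk1. Slc2a1 ranged from 3.06 to 5.99 FPKM in Ctrl and from 3.16 to 5.14 FPKM in cKO (difference -0.087, interval -0.63 to 0.46).

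Upper glycolysis, from glucose 6-phosphate to triose phosphates, held 9 genes, with differences between -0.47 and -0.051. Aldoc, the brain-type aldolase on chromosome 11 from 78213899 to 78218607, stood at 3.59, 3.27 and 4.34 FPKM in Ctrl and at 2.29, 2.54, 2.30 and 3.10 FPKM in cKO. The lowest Ctrl library lay just above the highest cKO library, and the gene was read only 96 to 202 times per library. The difference was -0.47 (SE 0.15, interval -0.81 to -0.13, limma unadjusted p = 0.0129, adjusted p = 0.511). Aldoa, the muscle-type aldolase, ranged from 157 to 200.2 FPKM in Ctrl and from 138 to 195 FPKM in cKO.

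Tpi1 stood at 573, 507 and 500.3 FPKM in Ctrl and at 424, 374, 409.8 and 583 FPKM in cKO. The groups overlapped only through cKO replicate 4, the highest of all 7 libraries. Gpi1, the isomerase that turns glucose 6-phosphate into fructose 6-phosphate, overlapped through cKO replicate 4 as well, with 169 to 205 FPKM in Ctrl, 139 to 145 FPKM in cKO replicates 1 to 3 and 191 FPKM in cKO replicate 4. Neither passed, with limma adjusted p of 0.713 for Tpi1 and 0.629 for Gpi1.

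The 3 phosphofructokinase genes did not share 1 pattern. Pfkl stood at 18.0, 12.5 and 17.3 FPKM in Ctrl and at 15.1, 11.2, 9.41 and 11.8 FPKM in cKO (difference -0.41, interval -0.84 to 0.019). Pfkp stood at 31.0, 25.5 and 30.9 FPKM in Ctrl and at 26.5, 23.5, 27.2 and 36.0 FPKM in cKO (difference -0.051, interval -0.42 to 0.32). For Pfkl cKO replicate 4 lay below all Ctrl libraries, and for Pfkp it lay above all of them. Pfkm ranged from 2.09 to 3.07 FPKM in Ctrl and from 1.73 to 2.20 FPKM in cKO.

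Pfkfb3 and Pfkfb4 encode the enzymes that make and remove fructose 2,6-bisphosphate, the activator of phosphofructokinase. Pfkfb3 had the widest spread among the tested members, at 7.17, 16.5 and 21.9 FPKM in Ctrl and at 9.05, 4.56, 16.9 and 24.4 FPKM in cKO. Libraries differed by as much within each genotype as between genotypes, and the interval of its difference reached from -1.56 to 1.06. Pfkfb4 ranged from 18.8 to 26.2 FPKM in Ctrl and from 16.6 to 19.6 FPKM in cKO (difference -0.29, interval -0.60 to 0.032).

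Lower glycolysis, from glyceraldehyde 3-phosphate to pyruvate, held 6 genes, with differences from -0.59 for Gapdh to -0.013 for Pgam1. Eno1 stood at 607, 471 and 399.9 FPKM in Ctrl and at 375, 337, 474 and 637 FPKM in cKO, so its extremes were both cKO libraries. Gapdh ranged from 3.09 to 5.80 FPKM in Ctrl and from 1.85 to 3.65 FPKM in cKO (limma adjusted p = 0.564), with the limit on its counting given above. Pgk1 ranged from 180.3 to 276 FPKM in Ctrl and from 155 to 264 FPKM in cKO. The mutase gene Pgam1 had almost equal means (Ctrl 121 ± 10.04 FPKM, SD, n = 3, and cKO 121 ± 16.0 FPKM, SD, n = 4) and an interval from -0.33 to 0.31.

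Pyruvate kinase makes pyruvate and ATP in the last step. Pkm stood at 189.5, 172 and 136 FPKM in Ctrl and at 126, 109, 126 and 187 FPKM in cKO. Pklr stood at 112, 122 and 108 FPKM in Ctrl and at 102, 91.1, 88.1 and 137 FPKM in cKO. In both genes cKO replicates 1 to 3 lay below all Ctrl libraries, while cKO replicate 4 lay among or above them. The differences were -0.29 for Pkm (SE 0.21) and -0.15 for Pklr (SE 0.17), with limma adjusted p of 0.700 and 0.827.

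Lactate handling gave no shared direction. Ldha stood at 334, 259 and 284 FPKM in Ctrl and at 274, 228, 258 and 348 FPKM in cKO (difference -0.086, interval -0.50 to 0.33, and 0.00203 after rescaling to a common sum). Ldhb was not tested for its low level, with 1 to 7 reads per library. It stood at 0.277, 0.274 and 0.0474 FPKM in Ctrl and at 0.173, 0.182, 0.106 and 0.0551 FPKM in cKO. The groups overlapped (exact permutation test, 2-sided p = 0.4).

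The monocarboxylate carrier MCT1 (Slc16a1), which can move lactate and butyrate, stood at 25.5, 21.3 and 24.3 FPKM in Ctrl and at 25.2, 21.9, 26.9 and 26.7 FPKM in cKO. MCT4 (Slc16a3), known as the lactate exporter of glycolytic cells, stood at 11.4, 9.44 and 10.9 FPKM in Ctrl and at 7.31, 5.47, 7.82 and 12.01 FPKM in cKO. Slc16a1 overlapped between the groups, with cKO replicates 3 and 4 the highest, whereas Slc16a3 was below Ctrl in cKO replicates 1 to 3 and above it in cKO replicate 4. Neither passed, with differences of 0.086 (SE 0.12) and -0.41 (SE 0.23) and limma adjusted p of 0.859 and 0.631.

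Genes of pyruvate entry into mitochondria mostly lay above 0, in 4 of 5 cases. Mpc2, the more abundant transcript of the 2 carrier subunits, stood at 89.6, 89.0 and 94.9 FPKM in Ctrl and at 74.9, 67.0, 74.8 and 95.9 FPKM in cKO (difference -0.23, SE 0.14). Mpc1, its partner, stood at 8.65, 7.60 and 7.47 FPKM in Ctrl and at 8.23, 9.85, 8.04 and 9.47 FPKM in cKO (difference 0.16, SE 0.12). The carrier works as a dimer of both proteins, yet the differences of the 2 transcripts had opposite signs. Adjusted p in limma was 0.653 for Mpc2 and 0.705 for Mpc1.

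Pdha1 and Pdhb encode the subunits of the first enzyme of the pyruvate dehydrogenase complex, and Pdk1 a kinase that switches it off. Pdha1 ranged from 46.3 to 61.9 FPKM in Ctrl and from 53.4 to 64.5 FPKM in cKO, and Pdhb from 51.8 to 60.2 and from 49.4 to 74.6 FPKM. Pdk1 stood at 9.17, 5.28 and 4.88 FPKM in Ctrl and at 9.20, 8.54, 6.68 and 6.41 FPKM in cKO. Ctrl replicate 1 and cKO replicate 1 were thus nearly equal for Pdk1, and the lowest values were both Ctrl. The intervals of the 3 differences all held 0, the widest that of Pdk1 from -0.25 to 0.80.

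The HIF1 pathway was read through its oxygen-regulated subunit, a growth factor target and 2 prolyl hydroxylases. Hif1a, on chromosome 12 from 73948098 to 73994328, stood at 16.7, 19.4 and 19.7 FPKM in Ctrl and at 18.6, 22.0, 24.5 and 28.9 FPKM in cKO. Only cKO replicate 1 fell within the Ctrl range. The difference was 0.32 (SE 0.16, interval -0.043 to 0.68, limma unadjusted p = 0.0772, adjusted p = 0.591). HIF1 is controlled mainly through the stability of this protein, which was not measured.

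Vegfa, the endothelial growth factor and a HIF1 target, had a difference of the opposite sign. On chromosome 17 from 46327919 to 46343303, it stood at 20.3, 24.1 and 35.2 FPKM in Ctrl and at 15.5, 16.2, 17.3 and 20.5 FPKM in cKO. The groups overlapped by a narrow margin, between Ctrl replicate 1 and cKO replicate 4, and Ctrl replicate 3 was the highest library. The difference was -0.57 (SE 0.19, interval -1.01 to -0.12) with an unadjusted p of 0.0185 and an adjusted p of 0.516 in limma, and without Ctrl replicate 3 it was -0.35. The Ctrl mean of 26.5 ± 7.77 FPKM (SD, n = 3) had a wider spread than the cKO mean of 17.4 ± 2.22 FPKM (SD, n = 4).

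Egln1, the main oxygen sensor PHD2, stood at 18.5, 17.1 and 14.7 FPKM in Ctrl and at 18.6, 16.0, 16.2 and 22.1 FPKM in cKO. Egln3, which encodes PHD3 and is itself induced by HIF, stood at 15.3, 19.5 and 16.7 FPKM in Ctrl and at 12.3, 12.5, 19.8 and 25.0 FPKM in cKO. The cKO libraries bracketed the Ctrl range for Egln3, with replicates 1 and 2 below it and replicates 3 and 4 above it. The difference of Egln3 was -0.038 (interval -0.62 to 0.55) and that of Egln1 0.11 (interval -0.22 to 0.45).

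**Figure D3:**
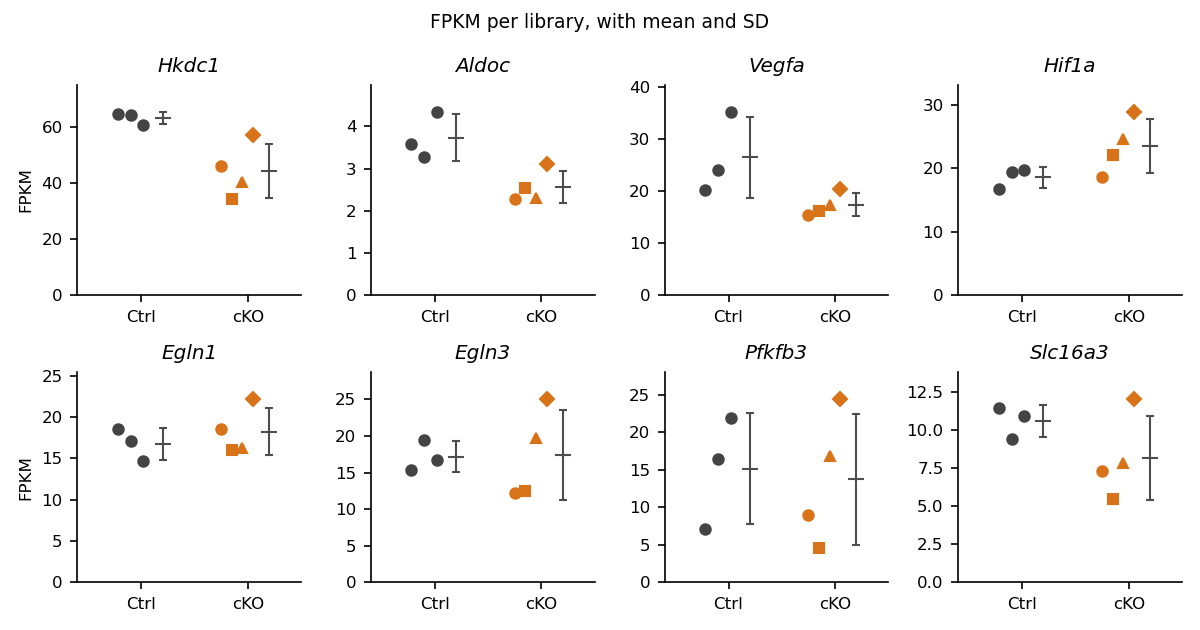
FPKM of 8 genes in each library, with Ctrl in grey, cKO replicates 1 to 4 as circle, square, triangle and diamond, and mean with SD to the right of each group. Hkdc1 and Aldoc do not overlap between the groups, Vegfa overlaps narrowly, and for Egln3, Pfkfb3 and Slc16a3 the cKO libraries spread beyond the Ctrl range on both sides.

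Within each library, 8 pairs of isoenzymes or partners were compared by the log2 ratio of their values, each as FPKM + 0.5, so that a ratio with a gene near 0 depends on the added 0.5. Mpc1 to Mpc2 was the only pair that did not overlap, with log2 ratios of -3.30, -3.47 and -3.58 in Ctrl and -3.11, -2.70, -3.14 and -3.27 in cKO. The ratio was 0.39 higher in cKO (exact 2-sided permutation p = 0.0571, the smallest that 3 against 4 libraries allow, adjusted p = 0.457 over the 8 pairs). The design could therefore not have passed 0.05, and the gap between Ctrl replicate 1 and cKO replicate 4 was narrow. With the trend of gene length removed the difference was 0.31 (exact p = 0.114).

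Slc16a1 to Slc16a3 was almost constant in Ctrl, at log2 ratios of 1.12, 1.13 and 1.12. In cKO it was 1.72, 1.91, 1.72 and 1.12, so that only cKO replicate 4 lay within the Ctrl level (difference 0.49, exact p = 0.114, adjusted p = 0.457). Hk2 to Hkdc1 differed by 0.48 (exact p = 0.343) and Pfkl to Pfkp by -0.36 (exact p = 0.171), and the groups overlapped for both. Pkm to Pklr ranged from 0.33 to 0.75 in Ctrl and from 0.25 to 0.51 in cKO (exact p = 0.286). The other 3 pairs, Ldha to Ldhb, Hk2 to Hk1 and Egln3 to Egln1, differed by 0.054, 0.048 and -0.15 with exact p of at least 0.629. Without the added 0.5, the difference of Ldha to Ldhb was 0.31 (exact p = 0.629), with 1 to 7 reads per library for Ldhb.

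**Figure D4:**
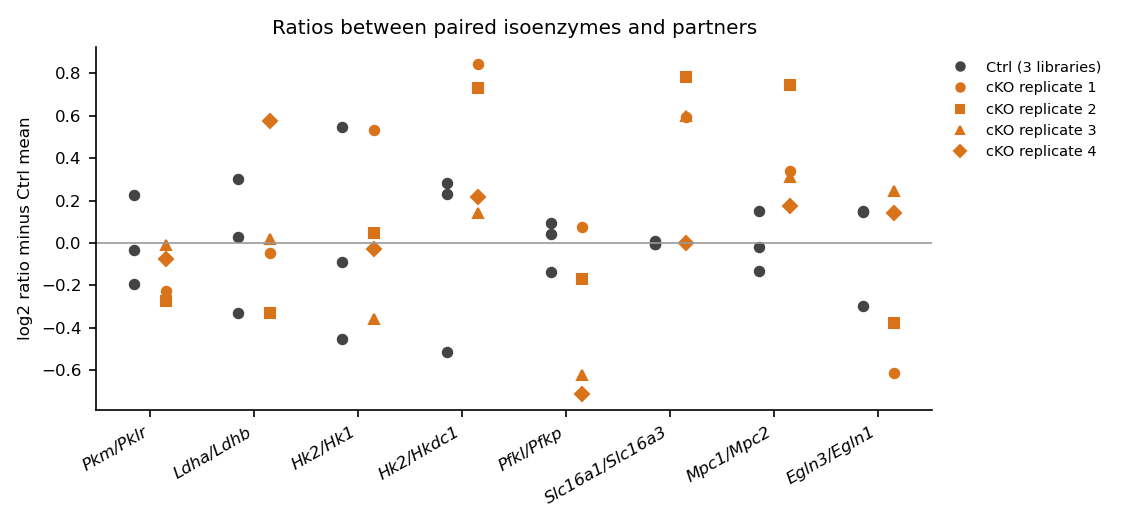
Log2 ratio of 8 gene pairs in each library minus the Ctrl mean of that pair, with Ctrl in grey and cKO in orange. The cKO libraries lie above Ctrl for Mpc1/Mpc2, and 3 of 4 lie above for Slc16a1/Slc16a3, where the Ctrl points nearly coincide.

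Other genes of the same pathways were taken from 9 lists, 123 genes in all, of which 99 were tested. Again 0 passed in limma, 10 had an unadjusted p under 0.05 (4 higher, 6 lower) where 8.97% of all tested genes did, and 11 did not overlap (6 higher, 5 lower) where 10.1% of all did. Their median difference was -0.046. Among other glycolytic enzymes, 6 of 12 tested lay below 0 and 6 above. The smallest p in this list belonged to the muscle-type enolase Eno3 (difference -0.36, SE 0.17), the phosphatase gene Pgp, whose product clears side products of glycolysis (-0.24, SE 0.16), and Pfkfb2, a relative of Pfkfb3 (0.21, SE 0.16), all with overlap between the groups.

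Gluconeogenic genes lay below 0 in 8 of 8 cases, with a median of -0.26. Fbp1, fructose bisphosphatase, stood at 28.3, 44.3 and 36.1 FPKM in Ctrl and at 19.5, 22.3, 26.7 and 25.5 FPKM in cKO without overlap (difference -0.60, SE 0.18, limma adjusted p = 0.511). It was 1 of 8 genes of the list lower without overlap, where 4.51% of all tested genes were. Fbp2, its muscle-type relative, was more abundant, with 227 to 246 FPKM in Ctrl and 185 to 246 FPKM in cKO. Of the pentose phosphate genes, which draw on glucose 6-phosphate to make NADPH and ribose, 6 of 7 tested lay below 0, with a median of -0.13. Pgd, Rpia, Tkt and Taldo1, 4 enzymes of the pathway, had differences of -0.22, -0.19, -0.15 and -0.13. In the gluconeogenic list the glucose 6-phosphate transporter Slc37a4 (-0.26, SE 0.21) and the phosphatase G6pc3 (-0.25, SE 0.23) followed Fbp1. Sugar carriers lay below 0 in 5 of 7 cases, and the intestinal glucose cotransporter Slc5a1 ranged from 755 to 1299 FPKM in Ctrl and from 853 to 1479 FPKM in cKO. The carriers Slc2a8, Slc2a9 and Slc2a10 had the smallest p of that list, with differences of -0.27, -0.16 and -0.20 and limma adjusted p of at least 0.752.

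The rest of the pyruvate dehydrogenase genes repeated the sign of Pdha1 and Pdhb in 8 of 11 cases, with a median of 0.10. Dld, the E3 subunit, ranged from 59.0 to 75.8 FPKM in Ctrl and from 69.2 to 86.6 FPKM in cKO, and its limma adjusted p was 0.743. The kinase Pdk3 and the phosphatase Pdp2, which act on the complex in opposite directions, had differences of 0.26 (SE 0.18) and 0.27 (SE 0.19), and the lipoyl synthase gene Lias one of -0.18 (SE 0.11). Lactate transport genes were split evenly, with 3 of 6 tested above 0. Bsg, the chaperone that carries MCT1 and MCT4 to the membrane, ranged from 423 to 558 FPKM in Ctrl and from 374 to 525 FPKM in cKO. The sodium-coupled carriers of lactate and short-chain fatty acids Slc5a8 and Slc5a12 had differences of 0.46 (SE 0.31) and 0.32 (SE 0.24), and the carrier Slc16a6 one of -0.41 (SE 0.21), with overlap in each case.

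Regulators of HIF lay above 0 in 8 of 12 tested cases. Egln2, the prolyl hydroxylase PHD1, stood at 38.1, 31.9 and 34.1 FPKM in Ctrl and at 29.7, 24.9, 24.5 and 31.8 FPKM in cKO (difference -0.32, SE 0.13, limma adjusted p = 0.542). The groups did not overlap, with Ctrl replicate 2 and cKO replicate 4 nearly equal. Without overlap, 3 genes of this list lay higher in cKO, namely Cul2, a scaffold of the ligase that removes HIF1 alpha (0.29), Ep300, a co-activator of HIF1 (0.23), and Arnt, the partner subunit of HIF1 alpha (0.21), the last named after its values were seen. Over all tested genes 5.62% were higher and 4.51% lower without overlap. Elob, an elongin subunit of the same ligase, was the most abundant, with 191 to 300.1 FPKM in Ctrl and 217 to 271 FPKM in cKO.

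Other HIF1 targets did not share a direction, with 15 of 26 tested below 0. At an unadjusted p under 0.05 there were 2 higher and 4 lower, where 4.24% of all tested genes were higher and 4.73% lower. Jmjd6, a hydroxylase gene, had the smallest p of the pathway lists, at 11.5, 11.02 and 12.1 FPKM in Ctrl and 8.58, 8.40, 9.18 and 8.71 FPKM in cKO (difference -0.39, SE 0.093, limma unadjusted p = 0.00313, adjusted p = 0.473). Higd1a, a mitochondrial protein gene induced in hypoxia, stood at 19.5, 19.6 and 23.8 FPKM in Ctrl and at 14.0, 7.43, 11.9 and 17.7 FPKM in cKO (difference -0.75, SE 0.26, adjusted p = 0.516 in limma). Ddit4, an inhibitor of mTORC1 that is induced by hypoxia and stress, stood at 13.7, 24.5 and 24.7 FPKM in Ctrl and at 14.7, 10.8, 13.5 and 15.7 FPKM in cKO (adjusted p = 0.542 in limma). Jmjd6 and Higd1a did not overlap between the groups, and Ddit4 did through Ctrl replicate 1. The other 3, named after their values were seen, were the histone demethylase gene Kdm3a (0.35, higher in cKO without overlap), the oxidoreductase gene Ero1a (0.39, with overlap) and Fam162a (-0.28, lower without overlap), with limma adjusted p of 0.542 to 0.554. Without overlap, 1 of the 26 was higher and 3 lower, where 5.62% of all tested genes were higher and 4.51% lower. Mif, a cytokine gene and the most abundant of these targets, ranged from 83.1 to 128 FPKM in Ctrl and from 57.1 to 126 FPKM in cKO.

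Prkaa1 and Prkaa2, the catalytic subunits of the energy sensor AMPK, lay higher in cKO without overlap. Prkaa1 stood at 5.03, 4.81 and 5.42 FPKM in Ctrl and at 5.97, 6.65, 6.84 and 6.86 FPKM in cKO (difference 0.34, SE 0.10). Prkaa2 stood at 3.15, 3.25 and 3.37 FPKM in Ctrl and at 3.97, 4.41, 4.07 and 5.03 FPKM in cKO (difference 0.37, SE 0.12). Both had an adjusted p of 0.511 in limma and did not pass. In the list of glucose-sensing and MYC regulators to which they belong, 5 of 10 lay above 0. These 2 of 10 were higher without overlap, where 5.62% of all tested genes were. With so few genes this is no result about the list. Arrdc4, which is induced by glucose, had a difference of 0.22 (SE 0.18), and Mxd1, an antagonist of MYC and the most abundant gene of the list, one of -0.073 (SE 0.24).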

How the data were processed

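RNA-seq of 3 Ctrl and 4 cKO libraries was analysed from 1 deposited table of FPKM values, by definition reads scaled by gene length and library size. Reads were aligned with HISAT2, per the submitters' processing notes. The sources used here give neither its version nor the counting program and strand setting. Columns were matched to samples by description, and replicates are numbered as in the titles. The column numbers differ from these. Ctrl replicates 1 to 3 are columns Ctrl_1, Ctrl_3 and Ctrl_4, and cKO replicates 1 to 4 are columns cKO_5 to cKO_8. After multiplication by gene length, 100% of a library's values were whole multiples of the value of 1 read, within 0.01. The library size implied by that value was 0.891 times the recovered reads in cKO replicate 4. In the other libraries it was 0.987 to 1.10 times, so the values were not scaled to the total of recovered reads.

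The 13057 genes averaging 0.5 FPKM or more were compared on log2(FPKM + 0.5), which understates changes of low genes, with limma 3.58.1 in R 4.3.3 (lmFit, eBayes with trend, 2-sided), Benjamini-Hochberg over all tested genes, threshold 0.05, without covariates. Single values used the exact permutation test over 35 splits. On simulated libraries with the real means, limma found 32.1% of genes with a log2 change of 1, 73.6% of those with 2, and 3 of 12232 unchanged genes, among 12403 tested. Alternatives were pseudocounts of 0.1 and 1, 2 filters, TPM, quantile normalization, length-trend removal, array weights, voom (at least 10 reads in 3 libraries), no variance trend, the replicate number as a block and leaving out each library. The members and lists were chosen with earlier results of these data known. All members are named; other lists give their most abundant gene and up to 3 with the smallest p, except 1 that is not reported here. Of the listed symbols, 3 had no row.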

Additional observations from a re-analysis of the deposited data

Results flagged for a closer look

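Among 76 gene levels and ratios examined in the 4 cKO libraries, 4 had 1 library apart from the other 3 by Dixon's criterion, which weighs the gap to the nearest other library against the group's range. Chance alone gives about 1 in 20. The gap was 0.834 of the range for Hk1 and 0.875 for Gpi1, both for cKO replicate 4, which was high at 2.17 and 191 FPKM. It was 0.913 for Arrdc4 for cKO replicate 1, which was low at 8.31 FPKM against at least 10.4 FPKM in the others. For Cul2 it was 0.943, for cKO replicate 3, which was high at 7.80 FPKM.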

How the results depend on the processing

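In none of the 18 alternatives did a member pass the adjusted p (0 of 558 values, lowest 0.276), and 21 of 31 members kept the sign of their difference in all of them. The median over members lay between -0.28 (without cKO replicate 4, and with the replicate block) and -0.059 (TPM). Genes called over the whole table numbered 4, against 0 with the replicate block, 1 with a pseudocount of 0.1, without a filter, with a mean of at least 1 FPKM or without the length trend, and 1 to 7 when 1 library was left out. Members at an unadjusted p under 0.05 numbered 5 without the length trend and in voom, 9 with array weights and with the replicate block, and 1 (without Ctrl replicate 3) to 10 (without cKO replicate 4) when 1 library was left out, against 3. Among all tested genes, 1171 were at that level. Their number also moved, to 798 to 1331 when 1 library was left out and to 959 to 1702 in the other alternatives. The share of all tested genes was 7.34% without the length trend, 7.62% without Ctrl replicate 3 and 9.4% without cKO replicate 4, against 8.97%. Members without overlap numbered 5 with TPM and without the length trend, and 2 to 10 when 1 library was left out, against 2. Of all tested genes, 10.1% did not overlap, and 8.73% without the length trend. With TPM, 2.34% of all were lower and 8.65% higher without overlap. When 1 library was left out, the share rose to between 12.3% (without cKO replicate 2) and 19% (without Ctrl replicate 3). It was 16.5% without cKO replicate 4, where members numbered 10. The labels do not pair the libraries, and the column numbers (Ctrl_1, Ctrl_3, Ctrl_4 and cKO_5 to cKO_8) share none between the groups. The replicate block therefore rests on the numbers in the titles alone. With so few libraries the correlations could not settle whether these numbers pair libraries. Deviations of same-numbered libraries correlated at 0.12, -0.087 and -0.13, and only those numbered 1 correlated best with their own number. The block sets cKO replicate 4 aside, as no Ctrl library has that number.

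Differences near 0 changed sign. With TPM they were 0.032 for Hk2, 0.035 for Pfkp, 0.075 for Pgam1, 0.00203 for Ldha, 0.047 for Egln3, 0.043 for Elob and 0.015 for Mxd1. With quantile normalization they were 0.016 for Pfkp, 0.11 for Pgam1, 0.062 for Ldha, 0.093 for Elob, 0.055 for Mxd1 and 0.0052 for Taldo1. Without the length trend they were 0.060 for Pgam1 and 0.15 for Elob, and in voom 0.00204 for Pgam1. With array weights they were 0.076 for Slc2a1, 0.12 for Hk2, -0.037 for Pdhb, 0.039 for Slc2a10 and -0.20 for Slc5a1, and with the replicate block -0.12 for Slc5a1. Leaving out 1 library gave ranges of -0.35 to 0.085 for Slc2a1, -0.25 to 0.082 for Hk1, -0.29 to 0.11 for Hk2, -0.17 to 0.030 for Pfkp, -0.70 to 0.17 for Pfkfb3, -0.097 to 0.053 for Pgam1, -0.31 to 0.026 for Eno1, -0.20 to 0.013 for Ldha, -0.024 to 0.17 for Pdhb and -0.23 to 0.10 for Egln3. The same ranges were -0.22 to 0.10 for Elob, -0.37 to 0.0045 for Mif, -0.22 to 0.077 for Mxd1, -0.33 to 0.065 for Slc2a10 and -0.21 to 0.18 for Slc5a1. For the log2 ratios they were -0.12 to 0.20 for Ldha to Ldhb, -0.18 to 0.32 for Hk2 to Hk1 and -0.30 to 0.0033 for Egln3 to Egln1. The cause was not tested.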
